A study of Homo sapiens with 4 samples.

Results

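Mutated sites listed as intergenic were described in RNA pulled down with PARP1, a nuclear ADP-ribosyltransferase that senses DNA breaks. HK-2 cells were used, an immortalised line from human kidney proximal tubule. Of the 4 samples, 2 are immunoprecipitations labelled PARP1 IP and 2 are inputs, which were not analysed here. The antibody was against Flag, and the labels name no tag on PARP1. The labels give no treatment, no control IP and no word on separate cultures, so the spread between IP 1 and IP 2 can be technical. Each IP has a list of mutated bases in GRCh38 coordinates. A site is a single base with a strand, and the list gives how many sequenced tags cover it and how many of them are mutated there. The intergenic sites are all sites that the authors' region column calls intergenic, which were 34998 of 166248 sites in IP 1 and 60544 of 229782 in IP 2. With no control IP and no input values, how much of a stretch was transcribed cannot be told apart from how much of it was bound.

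Intergenic is a class by default: it holds whatever an annotation leaves out. RNA polymerase II runs on past the end of most genes before it lets go, and under stress it can run far into the sequence behind them. Long noncoding RNAs that no annotation holds, short RNAs made in both directions at enhancers and promoters, and copies of repeated sequence also give reads outside genes. Read-through lies on the strand of the gene it follows, while enhancer transcription comes from both strands. Strand is therefore given for the regions named, as the lists have it, and whether the libraries kept strand is not given in the labels.

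The label fits the positions only in part. In the GENCODE release 29 annotation 29040 sites of IP 1 and 51568 of IP 2 lay outside every gene, and 5958 (17.0%) and 8976 (14.8%) lay inside one. Of the sites inside a gene, 76.6% in IP 1 and 69.7% in IP 2 were on the strand of a gene that covers them. Which gene models the lists were made with is not known here. GSE1 on chromosome 16 held the most in IP 1, with 90 and 100 intergenic sites inside its annotated span, 83 and 90 of them on its strand, while the lists assigned 40 and 34 other sites to it. In IP 2 the overlapping noncoding genes AL591485.1 and AL355499.2 on chromosome 6 held more, with 68 and 124 sites and 59 and 119 sites. The sulfatase-modifying factor gene SUMF1 held 63 and 98, the cyclin gene CCNG2 held 54 and 63, and the scavenger receptor gene MSR1 held 53 and 60. All 3 also had sites assigned by the lists, 16 and 16, 3 and 3, and 4 and 7.

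The 35116 stretches from 250 bases before to 50 bases after a RefSeq gene start held 149 intergenic sites of IP 1 (0.426%) and 223 of IP 2 (0.368%). These sites lay beside 138 and 204 genes, of which 9 were the same. The share of intergenic sequence in these stretches was not worked out. At 3 genes both IPs had the same base and strand, and their sequence is shown because these recurrent sites sit just before a gene start. The capital marks the base of the site, the 30 bases run 5′ to 3′ on the strand of the gene, and sequence and positions are from RefSeq on GRCh38.p14.
AXL: agagcccGgatagagagacacggcctcact
CCDC194: acccctcccaacggCctgggaagccacggc
ZNF316: gtcccctccccgcaTgccccgtcctcgccc
The AXL piece is chr19:41218973-41219002 on the plus strand, before the gene of a receptor tyrosine kinase that binds GAS6. Its site lay 243 bases before the RefSeq start on the strand of the gene, with 4 of 4 tags mutated in IP 1 and 8 of 8 in IP 2. The CCDC194 piece is chr19:17394249-17394278 on the minus strand, and its site, on the same strand as the gene, lay 68 bases before the start. The ZNF316 piece is chr7:6637166-6637195 on the plus strand, and its site lay 138 bases before the start on the opposite strand. At both the counts were 2 of 2 tags in each IP, the fewest the lists hold.

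Intergenic sites were shallow. Their tags summed to 76026 in IP 1 and 129347 in IP 2, and 93.4% and 93.9% of sites had 2 tags, both mutated, against 80.3% and 78.8% of intronic sites. Sites with 10 or more tags numbered 74 (0.211%) and 80 (0.132%), against 0.769% and 0.893% of intronic sites. Substitutions made up 81.3% and 81.9% of intergenic sites, deletions 14.4% and 13.8%, and insertions 4.28% and 4.30%. Introns had fewer substitutions, 70.1% and 69.6%, and more deletions, 23.9% and 24.4%. Sites antisense to genes were close to intergenic ones in both respects, with 80.4% and 81.5% substitutions and 94.5% and 94.6% of sites at 2 of 2 tags. Most sites stood alone: 69.5% and 70.1% had no other intergenic site on their strand within 100 bases, and the largest run of sites linked by such gaps held 11 in each IP. Among sites with 3 or more mutated tags, intergenic sites made up 10.4% of IP 1 and 13.1% of IP 2, against 21.1% and 26.3% of all sites.

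The spread over chromosomes was much alike in the IPs. Chromosome Y is not described here, and the 22 autosomes and X held 34977 sites of IP 1 and 60519 of IP 2 beside 1317 Mb of sequence that no gene of release 29 covers, or 26.6 and 45.9 per Mb counted over both strands. These counts take in the sites that lie inside a gene of release 29. Without them 29019 and 51543 sites were left, or 22.0 and 39.1 per Mb of that sequence. Chromosome 20 was the densest in both, with 38.4 and 71.3 sites per Mb. Chromosomes 19 and 7 followed in IP 1 with 37.4 and 32.1 per Mb, where IP 2 had 54.1 and 53.2, and chromosomes 10 and 4 followed in IP 2 with 57.3 and 57.2, where IP 1 had 30.3 and 31.4. The X chromosome had the fewest, 14.5 and 22.7 per Mb, then chromosome 18 with 14.8 and 26.8 and chromosome 13 with 17.7 and 31.6. The densest chromosome thus had 2.65 and 3.14 times the density of the sparsest. Counting only sites outside the genes of release 29, chromosome 20 was still the densest at 34.6 and 66.6 per Mb, and X had 13.0 and 20.7, chromosome 18 13.0 and 23.8 and chromosome 13 15.6 and 28.3. Chromosome 7 then had rank 5 in both IPs, at 25.9 and 44.4 per Mb.

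Over the 23 chromosomes the densities of the IPs ranked alike (Spearman rho 0.932, Pearson r 0.953). Density was above that of all chromosomes together in both IPs on 14 of 23, and on 9 when sites were divided by the whole length between first and last gene. The same chromosomes tended to be dense in introns: the intergenic density relative to the whole had a rho of 0.713 in IP 1 and 0.632 in IP 2 with the intronic density relative to the whole, and an r of 0.717 and 0.702. These points share their library, and no p is given. On chromosome 20 the intronic density was 1.44 times the whole in both IPs, beside 1.45 and 1.55 for intergenic sites, and on X it was 0.601 and 0.583 times, beside 0.546 and 0.494. Chromosomes 8 and 9 went apart, in opposite directions. Chromosome 9 had 0.755 and 0.756 times the whole for intergenic and 1.11 and 1.07 times for intronic sites, and chromosome 8 had 1.06 and 1.05 times for intergenic and 0.756 and 0.767 times for intronic sites. Assembly gaps count as intergenic length here. They hold no sites and lower the density of chromosomes that carry long ones.

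**Figure D1:**
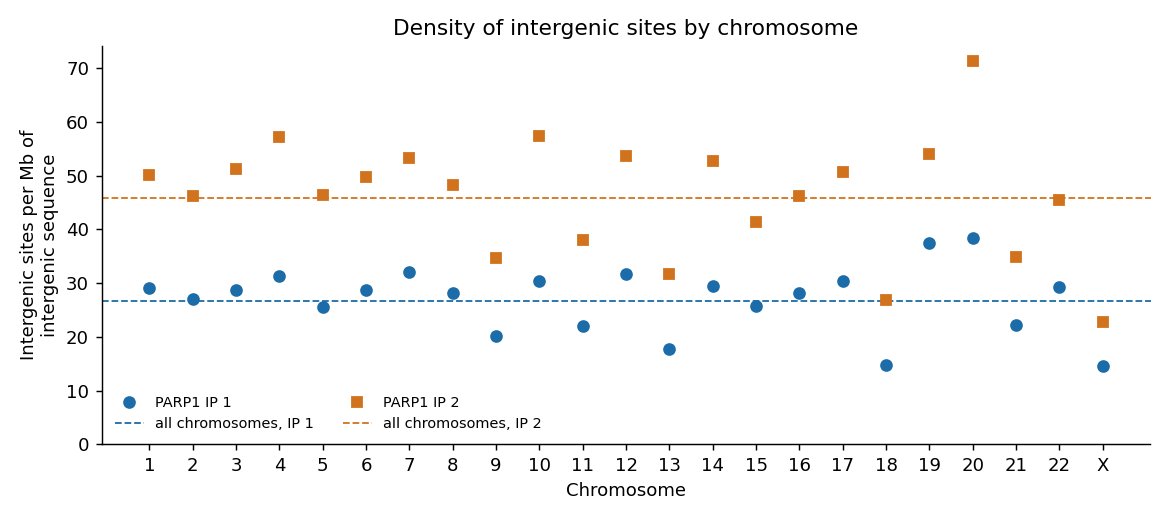
Intergenic sites, those inside a gene of release 29 included, per Mb of sequence outside such genes (y axis) on each chromosome (x axis) in PARP1 IP 1 (circles) and PARP1 IP 2 (squares), with dashed lines for all chromosomes together at 26.6 and 45.9 per Mb. Chromosome 20 is highest at 38.4 and 71.3, and X is lowest at 14.5 and 22.7.

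A minority of sites gathered in windows that were full in both IPs. The chromosomes were divided into fixed windows of 100 kb from their first base, and 17877 windows held an intergenic site in either IP, 10625 of them (59.4%) in both. The median window with a site held 2 in IP 1 and 3 in IP 2, and the 99th percentile was 15 and 18. Windows with 10 or more sites in both IPs numbered 276, which is 1.54% of windows with a site. They are 67.5% of the 409 windows that reach 10 in IP 1 and 27.9% of the 989 that reach it in IP 2, and they hold 4386 sites of IP 1 (12.5%) and 5242 of IP 2 (8.66%). Windows with 10 or more in IP 1 had a median of 13 in IP 2, though 6 of them had 0. Windows with 10 or more in IP 2 had a median of 5 in IP 1, and 58 of them had 0. Requiring 3 or more mutated tags left 2 such windows, and counting sites outside every gene of release 29 left 181. Of windows at the threshold, 56 had 10 as their smaller count and 64 just outside it had 9. Across the 17877 windows rho between the counts was 0.291 and r was 0.590, a description of windows that differ in intergenic length and share libraries.

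**Figure D2:**
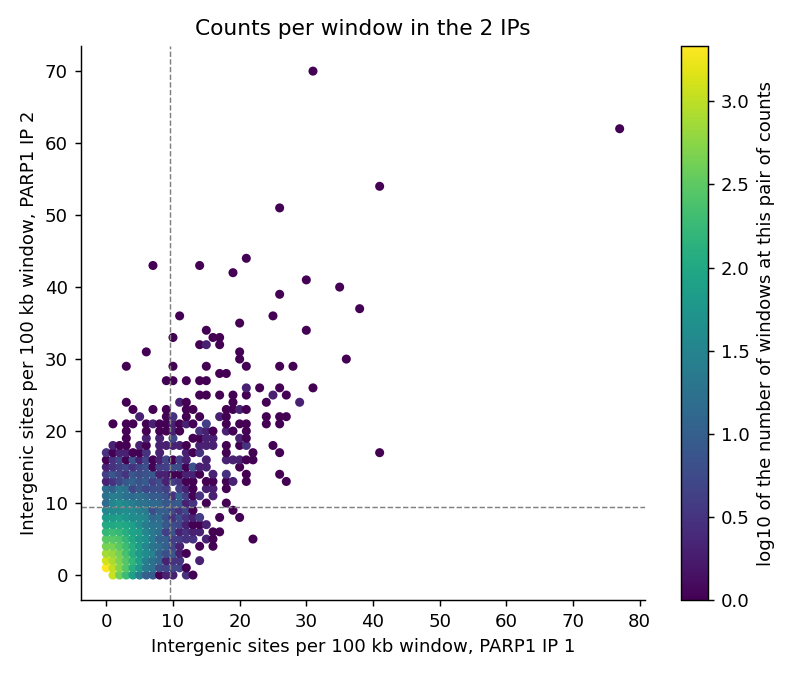
Number of intergenic sites per 100 kb window in PARP1 IP 1 (x axis) and PARP1 IP 2 (y axis) for the 17877 windows with a site; colour gives the log10 number of windows at each pair of counts, and dashed lines mark 10 sites. The 276 windows to the upper right of the lines reach 77 sites in IP 1 and 70 in IP 2.

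The fullest window was chr8:12500001-12600000, between the protein-coding genes FAM86B2 and LONRF1, with 77 sites in IP 1 and 62 in IP 2. Release 29 covers it whole with the noncoding transcript AC068587.4 and the pseudogene ENPP7P6. Its sites came from both strands, 43 of 77 and 30 of 62 on minus. Next was chr4:9500001-9600000 with 41 and 54 sites, mostly gene-free sequence with short pseudogenes between DEFB131A, a defensin gene, and SLC2A9, the renal urate transporter gene. There 39 of 41 and 47 of 54 sites were on plus. The third window, chr16:57800001-57900000, had 38 and 37 sites, where KIFC3, a kinesin motor gene, held 38 and 36 over its whole span. The fourth, chr5:43000001-43100000, had 35 and 40 around ANXA2R and ZNF131. In the KIFC3 window 76.3% of sites of IP 1 but 54.1% of IP 2 were on minus, and in the ANXA2R window 51.4% and 52.5% were.

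Other full windows lay behind a gene or along one, on its strand. At chr10:130200001-130300000 the 30 and 41 sites lay past the end of GLRX3, a glutaredoxin gene, and 29 and 37 of them were on its strand, a median of 29.3 and 46.6 kb behind it. The lincRNA AL157712.1, on the same strand as GLRX3, and a pseudogene cover all but 13.5 kb of that window. Inside a gene of release 29 lay 16 of the 30 and 34 of the 41 sites. At chr1:212100001-212200000 there were 26 sites in each IP, 23 and 25 of them on plus. That is the strand of DTL, which encodes a substrate receptor of a cullin-RING ubiquitin ligase. For 19 and 24 of the plus sites the end of DTL was the nearest gene end behind them on their strand. At chr7:150100001-150200000 all 26 sites of IP 1 and 50 of 51 of IP 2 were on minus, a median of 93.7 and 105 kb behind the end of ACTR3C. At chr12:94800001-94900000, beside NDUFA12, a gene of respiratory complex I, 27 of 31 and 22 of 26 sites were on minus and lay behind it.

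In 5 of the 15 fullest windows, the AC068587.4 window among them, every site lay inside a gene of release 29. CCNG2 covered chr4:77200001-77300000 (36 and 30 sites), GSE1 chr16:85400001-85500000 (30 and 34), and STOX2 chr4:183800001-183900000 (26 and 29). The noncoding AL355499.2 covered chr6:8400001-8500000 with 25 and 36. At chr6:158200001-158300000 25 of 26 and 38 of 39 sites were inside a gene, and TULP4 as a whole held 25 and 38. In the STOX2 window 26 of 26 and 26 of 29 sites were on the strand of that gene.

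Windows with no annotated gene were also among the 15. At chr1:98100001-98200000, between DPYD, the first enzyme of pyrimidine breakdown, and SNX7, a sorting nexin gene, 27 of 28 and 27 of 29 sites were on plus. That is opposite to the strand of DPYD, which lies 105 kb from the window. The nearest gene end behind these plus sites on their strand was that of NFU1P2, a median of 93.7 and 73.1 kb away. At chr20:31000001-31100000 there were 31 and 70 sites from both strands, 64.5% and 62.9% on minus. That window lies in the longest gene-free stretch touched by the 15, a run of 441 kb (chr20:30816275-31257663) between RNA5SP528 and the defensin gene DEFB115 that held 49 and 109 sites, or 111 and 247 per Mb. The next longest were 184 kb on chromosome 12 between TMCC3 and KRT19P2, with 40 and 53 sites (36 and 40 on minus), and 167 kb on chromosome 7 between AC092666.1 and ACTR3C, with 43 and 78 (41 and 77 on minus).

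Full windows adjoined each other in part. The 276 windows formed 217 runs, of which 176 were single, 28 were pairs and 13 had 3 or more windows. The longest was chr7:149900001-150400000 at 5 windows, with 96 and 117 sites, 91.7% and 90.6% of them on minus. Runs of 4 windows lay along GSE1 on chromosome 16 (85 and 93 sites, 92.9% and 89.2% on plus) and past NUP35, a nuclear pore gene, on chromosome 2 (47 and 61 sites, 93.6% and 85.2% on plus). The run past NUP35 starts 38.3 kb beyond that gene and contains the lincRNA AC021851.1 and the pseudogene LIN28AP1, both on plus as NUP35 is. A further run of 4 windows, on chromosome 1 between MTRNR2L11 and the muscarinic receptor gene CHRM3, had 73 and 99 sites with 43.8% and 60.6% on plus.

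Over the whole set the strands were nearly even. The plus strand held 50.2% of sites in IP 1 (exact 95% interval 49.7 to 50.7) and 50.5% in IP 2 (50.1 to 50.9). By chromosome the plus share ran between 46.4% and 56.2% in IP 1 and between 45.9% and 56.5% in IP 2. Chromosome 14 was the only one of 23 whose interval left out 50% on the same side in both IPs, with 56.2% and 56.5% on plus. Outside its windows with 10 or more sites in both, the share on chromosome 14 was 51.2% (interval 47.9 to 54.5) in IP 1 and 55.0% (52.7 to 57.3) in IP 2.

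Within full windows 1 strand usually held most sites, and it was the same strand in the other IP. Of 275 windows with 10 or more sites in both IPs and no tie in IP 1, the strand with more sites in IP 1 also had more in IP 2 in 253 (92.0%). That strand held 4197 of 5221 sites of IP 2 in those windows, or 80.4%. Read the other way, the strand chosen in IP 2 held 84.5% of sites of IP 1. In 67 windows the strand chosen in IP 1 held 90% or more in both IPs, and in 9 it held between 40% and 60% in both. The same held outside every gene of release 29, where 163 of 180 windows kept the strand and 79.6% of sites of IP 2 were on it. With 5 or more sites in both IPs the strand was kept in 929 of 1193 windows (77.9%).

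**Figure D3:**
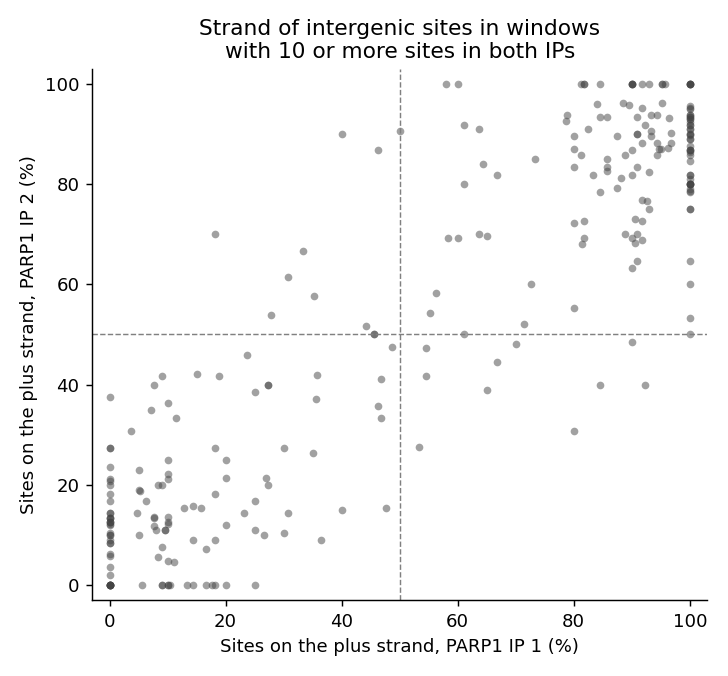
Share of intergenic sites on the plus strand in PARP1 IP 1 (x axis, %) and PARP1 IP 2 (y axis, %) in the 276 windows with 10 or more sites in both; each point is 1 window and dashed lines mark 50%. Points gather toward opposite corners, and 253 windows lean to the same strand in both IPs.

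Some bases were listed on both strands of the same IP. This was so for 348 intergenic sites of IP 1 (0.994%, interval 0.893 to 1.10) and 1070 of IP 2 (1.77%, 1.66 to 1.88), against 607 of 103602 and 1277 of 127727 intronic sites and 3.59% and 4.37% of sites antisense to a gene. In IP 2 the share with a partner on the opposite strand of the same list was thus above the share found in IP 1 at the same base and strand, which is given below. A partner on the opposite strand in the other IP was found for 407 sites of each list, or 1.16% of IP 1 and 0.672% of IP 2, more than in the same list for IP 1 and fewer for IP 2.

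Close to genes the sites were denser, and most so just past a gene end on the strand of the gene. Over all intergenic sequence between the first and last gene of each chromosome the density was 11.0 sites per Mb of 1 strand in IP 1 and 19.5 in IP 2. In the first kilobase past a gene end, on the same strand, it was 35.8 and 46.7 per Mb, then 25.3 and 36.0 from 1 to 5 kb, 18.3 and 27.5 from 5 to 10 kb, and 7.92 and 15.6 beyond 100 kb. On the opposite strand past a gene end the first kilobase had 18.1 and 26.5 per Mb. Before a gene start it had 20.4 and 27.3 on the strand of the gene and 16.9 and 24.6 on the other strand. The 10 kb past gene ends held 9.82% of strand bases, and 20.8% of sites of IP 1 (interval 20.4 to 21.3) and 16.8% of IP 2 (16.5 to 17.1). On the opposite strand the same stretch held 13.1% and 12.3%. The sites counted here are those outside every gene of release 29. Of all intergenic sites 19.6% and 16.2% lay within 10 kb past an end, and of those with 3 or more mutated tags 33.1% and 24.7% did. No test was made, since sites of 1 library are not replicates.

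**Figure D4:**
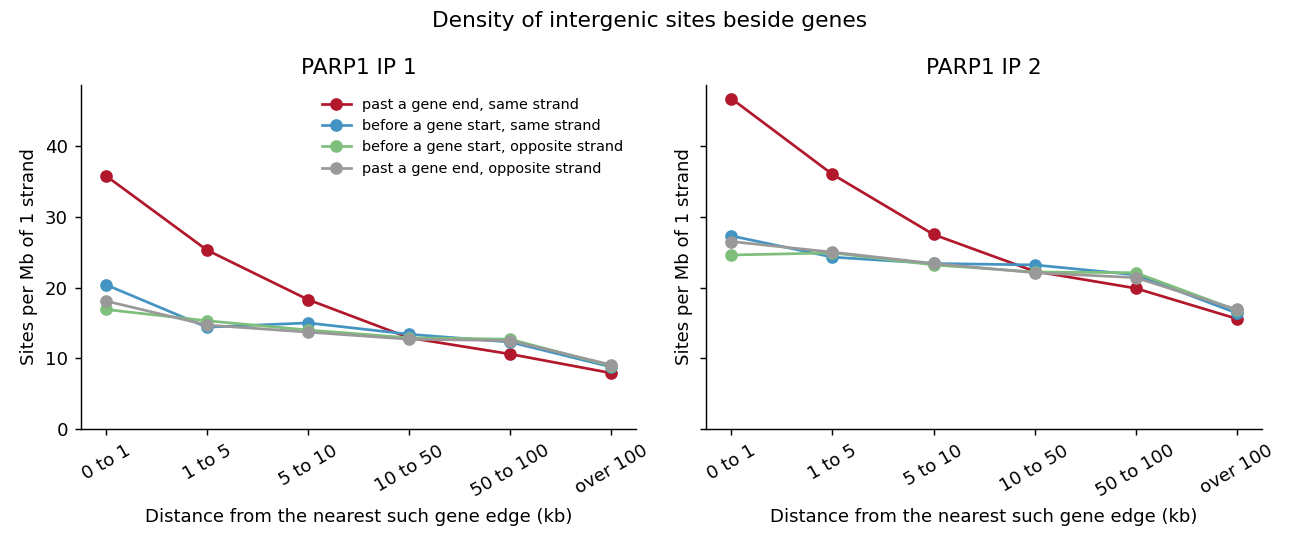
Intergenic sites per Mb of 1 strand (y axis) against distance in kb from the nearest gene edge of each kind (x axis, unequal bins), for PARP1 IP 1 (left) and PARP1 IP 2 (right). Past a gene end on the same strand the density is 35.8 and 46.7 in the first kilobase and 7.92 and 15.6 beyond 100 kb, and the other 3 kinds of flank stay lower near the gene.

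Of the 58780 genes of release 29, 3776 in IP 1 and 5375 in IP 2 had sites within 10 kb past their end. In both IPs were 1540 genes, 40.8% and 28.7% of each set. Of those, 139 had 3 or more sites in each IP and 15 had 5 or more. Some of the genes with most such sites are named here, chosen after their counts were seen. The pseudogene AC138393.1 on chromosome 1 had 14 and 12, and GLRX3 had 11 and 12, between 0.144 and 9.58 kb behind its end in IP 1. ANKRD36C had 15 and 9, and ZNF207, which encodes a spindle checkpoint protein, had 6 and 8. FHL3, a LIM domain gene of the actin cytoskeleton, had 10 and 5, but the 10 of IP 1 lay between 0.0450 and 0.0540 kb behind it. HAVCR1, which encodes the kidney injury molecule KIM-1 of proximal tubule cells (chromosome 5, 157029413 to 157059119, minus strand), had 4 and 6.

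At single bases, intergenic sites seldom recurred. The same base and strand was in IP 2 for 892 sites of IP 1 (2.55%, interval 2.39 to 2.72), and in IP 1 for 892 sites of IP 2 (1.47%, 1.38 to 1.57). Over all classes the shares were 4.17% and 3.02%, so intergenic sites were below the lists as a whole. Intronic sites recurred at 4.71% and 3.82%, and sites antisense to genes at 2.40% and 1.37%. Depth and mutation type move with this. Among substitutions with 2 of 2 tags alone, 2.46% (interval 2.28 to 2.65) and 1.35% (1.25 to 1.46) of intergenic sites recurred, against 4.80% (4.63 to 4.97) and 3.81% (3.68 to 3.95) of intronic ones. The difference from introns was thus as large within the shallowest substitutions as over all sites.

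Recurrence varied among intergenic sites with mutated tags and with place. It was 2.29% and 1.27% at 2 mutated tags, 7.95% and 5.28% at 3, and 9.53% and 7.51% at 4 or more. Substitutions recurred at 2.70% and 1.55% and deletions at 1.73% and 1.03%. Within 10 kb past a gene end on the same strand 3.78% and 2.65% recurred, between 10 and 100 kb 2.44% and 1.42%, and beyond 100 kb 2.02% and 1.06%. Sites inside a gene of release 29 recurred at 3.93% and 2.60%, against 2.27% and 1.28% outside. In windows with 10 or more sites in both IPs 6.04% and 5.07% recurred, against 2.05% and 1.13% in other windows. Those windows were chosen on counts from both lists, to which a recurrent site adds in each, so this last pair is a description only. The strands were alike, 2.47% and 1.42% on plus and 2.63% and 1.53% on minus.

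**Figure D5:**
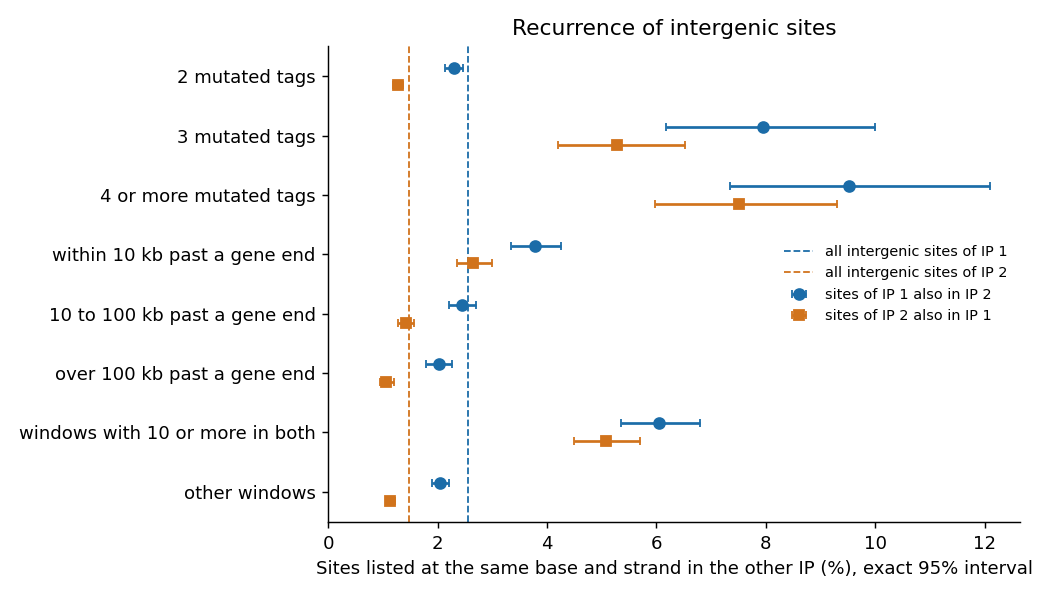
Share of intergenic sites listed at the same base and strand in the other IP (x axis, %) by mutated tags, distance past a gene end on the same strand and fullness of the window (rows), for PARP1 IP 1 (circles) and PARP1 IP 2 (squares), with exact 95% intervals. Dashed lines give all intergenic sites at 2.55% and 1.47%; sites with 4 or more mutated tags stand at 9.53% and 7.51%.

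The autosomes and X carried 889 recurrent bases. The mutation type was the same in both IPs at 885 of them (99.6%): 767 substitutions, 84 deletions and 34 insertions. At 802 of these 885 (90.6%) every tag was mutated in both IPs, and 635 (71.8%) had 2 of 2 tags in both. They lay in 685 windows, of which 558 held 1 each. Only 51 had 3 or more mutated tags in both IPs, 15 had 4 or more, and 4 had 10 or more tags in both. Whether the genome of the cells itself differs from GRCh38 at the recurrent bases was not tested.

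The strongest recurrent base by mutated tags lay on chromosome 2 at 132255571 on minus, with 20 of 20 tags mutated in IP 1 and 14 of 15 in IP 2. It lies inside ANKRD30BL in release 29 and 1.40 kb behind the microRNA gene MIR663B, and a neighbour at 132255509 had 5 of 6 and 6 of 9. Inside MSL2, a ubiquitin ligase gene of the MSL chromatin complex, a base on chromosome 3 had 5 of 5 and 7 of 9. Inside TIAL1, which encodes an RNA-binding protein, a base on chromosome 10 had 4 of 6 and 4 of 4. In release 29 the TIAL1 base lies in an exon of a retained-intron transcript and of a nonsense-mediated decay transcript of that gene. In the fourth fullest window a base had 4 of 5 and 5 of 5.

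Others lay behind a gene end on its strand. A base 0.538 kb behind HAVCR1, on its strand, was the deepest of the 10, with 25 tags in IP 1 and 34 in IP 2, of which 5 and 4 were mutated. Its window held 8 and 18 sites. A base 0.00200 kb behind HIST1H2BM, a histone H2B gene, had 4 of 9 and 4 of 6 mutated, and a base 5.50 kb behind the cytokine gene IL15 had 6 of 6 and 4 of 4. The AXL base shown above, with 4 of 4 and 8 of 8, lay 11.4 kb behind CYP2S1 on the same strand. The last, on chromosome 18 between ZNF519 and POTEC, had 4 of 4 in both.

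Windows with most recurrent bases were not always the fullest. The first, chr1:224000001-224100000, had 10 recurrent bases among 20 and 31 sites, close behind the pseudogene AC138393.1 and before FBXO28. There 90.0% of sites of IP 1 but 48.4% of IP 2 were on plus. The windows of AC068587.4 and of the chromosome 4 pseudogenes had 7 and 6. A window of chromosome 17 with no annotated gene (chr17:26800001-26900000) had 6 among 19 and 13 sites, 16 and 11 of them on minus. The HOXB window (chr17:48600001-48700000) had 6 among only 10 and 6 sites, all on minus as the HOXB genes are and all inside a gene of release 29. For 9 and 6 of them the nearest gene end behind on their strand was that of HOXB9, a homeobox gene. The sites of IP 2 in that window were thus all recurrent. For all windows named, it is not known here how reads that map to several places were assigned.

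Between 2 SMAD genes, chr15:66800001-66900000 had 25 sites in each IP, 5 of them recurrent. SMAD6, an inhibitory SMAD of the BMP and TGF-beta pathways, ends 17.2 kb before this window, and SMAD3, a signal transducer of TGF-beta receptors, starts 164 kb after it. Both are on plus, and so were 21 of 25 sites in IP 1 and 24 of 25 in IP 2. The lincRNA AC110048.2 is annotated inside the window, and for 12 and 16 of the plus sites its end was the nearest one behind on their strand. The other windows with 5 recurrent bases were in GSE1, in the scaffold gene GRIP1, between TBC1D19 and the calcium sensor gene STIM2, and on chromosome 6 in the wide stretch between RFPL4B and MARCKS. In GRIP1 all 12 and all 16 sites were on its minus strand.

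As a check of the cell label, 12 of 18 proximal tubule and epithelial markers had a site assigned in both lists, among them KRT8, KRT18, PAX8, LRP2, CUBN and HAVCR1, and ANPEP and AQP1 had none in either. Of 10 markers of other cells, PECAM1 and VWF had one in both, and PTPRC, CD3E, UMOD and AQP2 had none in either. Of all 19936 protein-coding genes 50.8% had a site in both lists and 32.6% in neither, so the markers' counts say little about the cell type, and a named gene shows tags, not a level of expression.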

How the data were processed

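RNA immunoprecipitates of 2 PARP1 IPs were analysed, and the 2 inputs were not used here. The submitters' processing notes name bcl2fastq, TopHat2 and GRCh38. How sites were called, at which thresholds and after what removal of duplicates is not stated there. Per the file headers, the authors deposited for each 1-base site a count of tags and a count of mutated tags, all whole numbers, with at least 2 mutated tags at every site. Depth is known as tags over listed sites only, and amplified reads are not independent molecules, so the exact (Clopper-Pearson) 95% intervals cover counting error only.

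Intergenic sites were taken by the authors' region class. Gene positions came from GENCODE release 29 (GRCh38, counted from 1), and gene names are those of that release. Intergenic sequence was all sequence between the first and last gene of a chromosome that no gene covers, assembly gaps included. Recurrence meant the same base and strand. Distances run along the strand of the site. Python 3.11.15, pandas 2.3.3, numpy 2.4.6 and scipy 1.17.1 were used. Window counts, recurrence and distances were tested on simulated data. With 2 lists and no controls no test was made.

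The members, windows and lists were chosen with earlier results of these data known. Named were the 15 windows with the largest smaller count of the IPs, the 10 recurrent sites with most mutated tags in the weaker IP, the 10 windows with most recurrent sites, the densest and sparsest chromosomes and the 3 longest gene-free stretches. Genes named for sites inside them or past their ends, runs of windows, chromosomes 8, 9 and 14 and the deepest sites were chosen after their values were seen. The sequences are 30 bases each from RefSeq promoter stretches, and no genome sequence was used here.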

Additional observations from a re-analysis of the deposited data

How the results depend on the processing

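Values are means of the 2 IPs unless they are counts. With 3 or more mutated tags required, intergenic sites were 11.8% of the lists against 23.7%, 2 windows against 276 had 10 or more sites in both IPs, the plus share was 51.0% against 50.3%, recurrence was 2.80% against 2.01%, and 28.9% against 17.9% lay within 10 kb past a gene end. Substitutions alone gave 163 windows and a plus share of 50.1%. Counting sites within 100 bases once gave 169 windows. Sites outside every GENCODE gene gave 181 windows and a plus share of 49.9%, and windows of 50 kb gave 149. Thresholds of 5 and 20 sites gave 1233 and 41 windows, and a shift by 50 kb gave 276. A match on either strand gave a recurrence of 2.86%. Distances of 5 and 50 kb gave 11.4% and 44.7%. Per Mb between the first and last gene, 9 chromosomes against 14 were above the whole in both IPs. Without gene-free stretches over 1 Mb, an alternative chosen after seeing the data, 14 were. The causes of these changes were not tested. With either IP left out, the intergenic share ranged from 21.1% to 26.3%, the plus share from 50.2% to 50.5% and the share past gene ends from 16.2% to 19.6%, and 15 chromosomes were above the whole in each case. No paired analysis was possible because shared numbers join an IP to an input, and the lists analysed here hold IP columns only. Depth limits what single sites show, since 95.9% and 95.8% of intergenic sites have 2 mutated tags.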

Other observations

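The deepest intergenic sites of each IP lay at few places, given here as values. On chromosome 1 an insertion at 125180194 on plus had 127 tags in IP 1 and 142 in IP 2, of which 3 and 5 were mutated. It lies 3604 kb past the nearest gene end on its strand, and other deep sites were close by, at 125180184 with 126 tags in IP 1 and at 125180193 with 142 tags in IP 2. A base at 228558244 on the same chromosome had 62 tags in IP 1, of which 4 were mutated. On chromosome 16 the deepest sites differed, at 46390315 with 52 tags in IP 1 and at 46401400 with 51 tags in IP 2, both on minus. On chromosome 21 a base at 8258167 on plus had 55 tags in IP 2, 1.23 kb past the nearest gene end. How reads that map to several places were assigned is not given in the sources used here.

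Gene-free stretches over 1 Mb numbered 33 and covered 123 of the 1317 Mb outside genes, assembly gaps included. They held 602 intergenic sites of IP 1 (1.72%) and 1190 of IP 2 (1.97%). How much of their length reads can map to was not tested.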
